A study of Homo sapiens with 12 samples.

Results

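AGRN, the gene of agrin, was examined as 1 RNA in 12 iCLIP libraries. All listed positions from 955503 to 991499 of chromosome 1, plus strand (GRCh37, hg19), were taken, which gave 2362 of the 1162690 listed positions of the series, summed over libraries. The gene had been picked because FOX2 and TDP43 both gave signal on it, so levels set between proteins are described here without a test, and tests of level are between genotypes within this choice. Positions along the gene were not part of that choice. No position of the minus strand was listed in the same span in any library.

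The libraries came from H9, an established human embryonic stem cell line grown on Matrigel. Wild-type (WT) cells and P-KO cells, whose source label also carries the name SPA, received 400 mJ per square centimetre of ultraviolet light. RNA was then recovered with antibodies to RBFOX2 (FOX2 below), TDP43 or hnRNP M. The 6 groups of protein and genotype held 2 libraries each, called biological replicates in the series design text. The labels do not say from how many clones or cultures the P-KO cells came, so p-values measure only the spread between these libraries. In iCLIP the end of each cDNA marks the nucleotide at which reverse transcription met the crosslinked protein. A count is therefore taken here as a measure of contacts near that nucleotide. It moves with the amount of the RNA as well as with binding, and the series as analysed here holds no measure of AGRN RNA itself. More AGRN RNA and more contacts per molecule cannot be told apart.

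Agrin is a large heparan sulphate proteoglycan of basement membranes. The form that motor neurons release acts through the receptor LRP4 and the kinase MuSK to cluster acetylcholine receptors at the neuromuscular junction, and short alternative exons toward the 3′ end of the gene, at the z site, set that activity. FOX2 is a splicing regulator that binds GCAUG elements, TDP43 binds GU-rich RNA, often deep in introns, and hnRNP M, a common protein of the nucleus, also acts in splicing.

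Each listed count covered 11 nt. Overlapping windows cannot be added, so non-overlapping windows were kept from the highest count down, and their counts are called window counts. The 12 libraries held 58191 to 648651 window counts in all, the fewest in hnRNP M and the most in FOX2 P-KO replicate 2. A position under the authors' limits has no line, so a library without one is described as listed at 0. Intervals are 95% Clopper-Pearson intervals and cover counting error only. They take each count as an independent event, which is not known, since the counts may be reads or collapsed cDNAs.

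AGRN was among the most contacted features of both FOX2 and TDP43. In FOX2 WT it held 557 window counts in replicate 1, or 0.255% of the library (0.234 to 0.277), and 1330 in replicate 2, or 0.461% (0.436 to 0.486). In FOX2 P-KO it held 1578 window counts, or 0.680% (0.647 to 0.714), and 4805, or 0.741% (0.720 to 0.762). Both P-KO libraries of FOX2 thus lay above both WT libraries, and the intervals of the WT libraries did not overlap each other. Among 97619 features with counts, made of AGRN and strand-specific bins of 10 kb, AGRN ranked 6 and 4 for FOX2 with WT cells and 4 in each FOX2 P-KO library. The AGRN span of 35997 nt is longer than a bin, so the ranks here and below are not between features of equal length.

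TDP43 gave a lower share and a less even one. TDP43 WT had 635 and 636 window counts, or 0.306% (0.282 to 0.330) and 0.225% (0.208 to 0.243) of the library. TDP43 P-KO had 186 and 714, or 0.108% (0.0928 to 0.124) and 0.244% (0.226 to 0.262). The P-KO libraries lay on both sides of TDP43 WT replicate 2, so the genotypes overlapped. The rank of AGRN was 10 and 9 with WT cells, and 11 and 8 with P-KO cells.

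hnRNP M left little on AGRN. Only hnRNP M WT replicate 2, with 123482 window counts in all, listed AGRN, at 35 window counts or 0.0283% of the library (0.0197 to 0.0394), where it ranked 93. The other hnRNP M WT library and both hnRNP M P-KO libraries listed it at 0. Those 3 libraries held 58191 to 62030 window counts, so the shallower hnRNP M libraries were the ones without a line. In the order of group means FOX2 P-KO came first (0.710% ± 0.0432, SD, n = 2), followed by FOX2 WT (0.358% ± 0.146), TDP43 WT (0.265% ± 0.0572), TDP43 P-KO (0.176% ± 0.0963) and hnRNP M. Of these neighbours, FOX2 WT and TDP43 WT overlapped, as did the TDP43 genotypes.

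**Figure D1:**
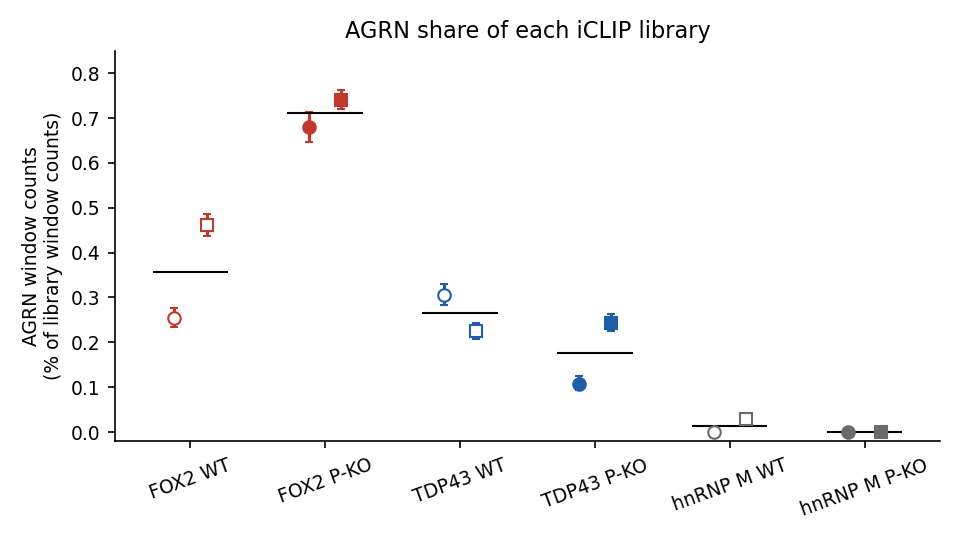
AGRN window counts as a percentage of all window counts of each library, by protein and genotype; circles are replicate 1, squares replicate 2, open symbols WT, filled symbols P-KO, bars 95% Clopper-Pearson intervals and black lines group means. The FOX2 P-KO libraries lie at 0.680% and 0.741%, above FOX2 WT at 0.255% and 0.461%, while TDP43 WT and P-KO overlap and 3 of 4 hnRNP M libraries lie at 0.

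Most of this signal came from a short piece of the gene. The positions whose label names intron 33 of transcript ENST00000379370.2 ran from 987363 to 988998, a stretch of 1636 nt or 4.54% of the gene's length, close to its 3′ end. In FOX2 WT the stretch held 517 of 557 window counts (92.8%) in replicate 1 and 1229 of 1330 (92.4%) in replicate 2. In FOX2 P-KO it held 1526 (96.7%) and 4574 (95.2%). The FOX2 signal on AGRN was therefore almost wholly a signal of this stretch in all 4 libraries.

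The stretch also led in TDP43. It held 482 window counts (75.9%) and 533 (83.8%) in the TDP43 WT libraries. With P-KO cells it held 147 (79.0%) and 594 (83.2%). In the hnRNP M library with signal it held 9 of 35 window counts (25.7%), in 3 windows. The lowest count listed inside the stretch was higher (5, 7, 13 and 12 in the FOX2 libraries and 4, 4, 5 and 5 in TDP43) than outside it (3, 3, 3 and 4, and 3, 3, 3 and 2). Counts below these were thus listed outside the stretch only.

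**Figure D2:**
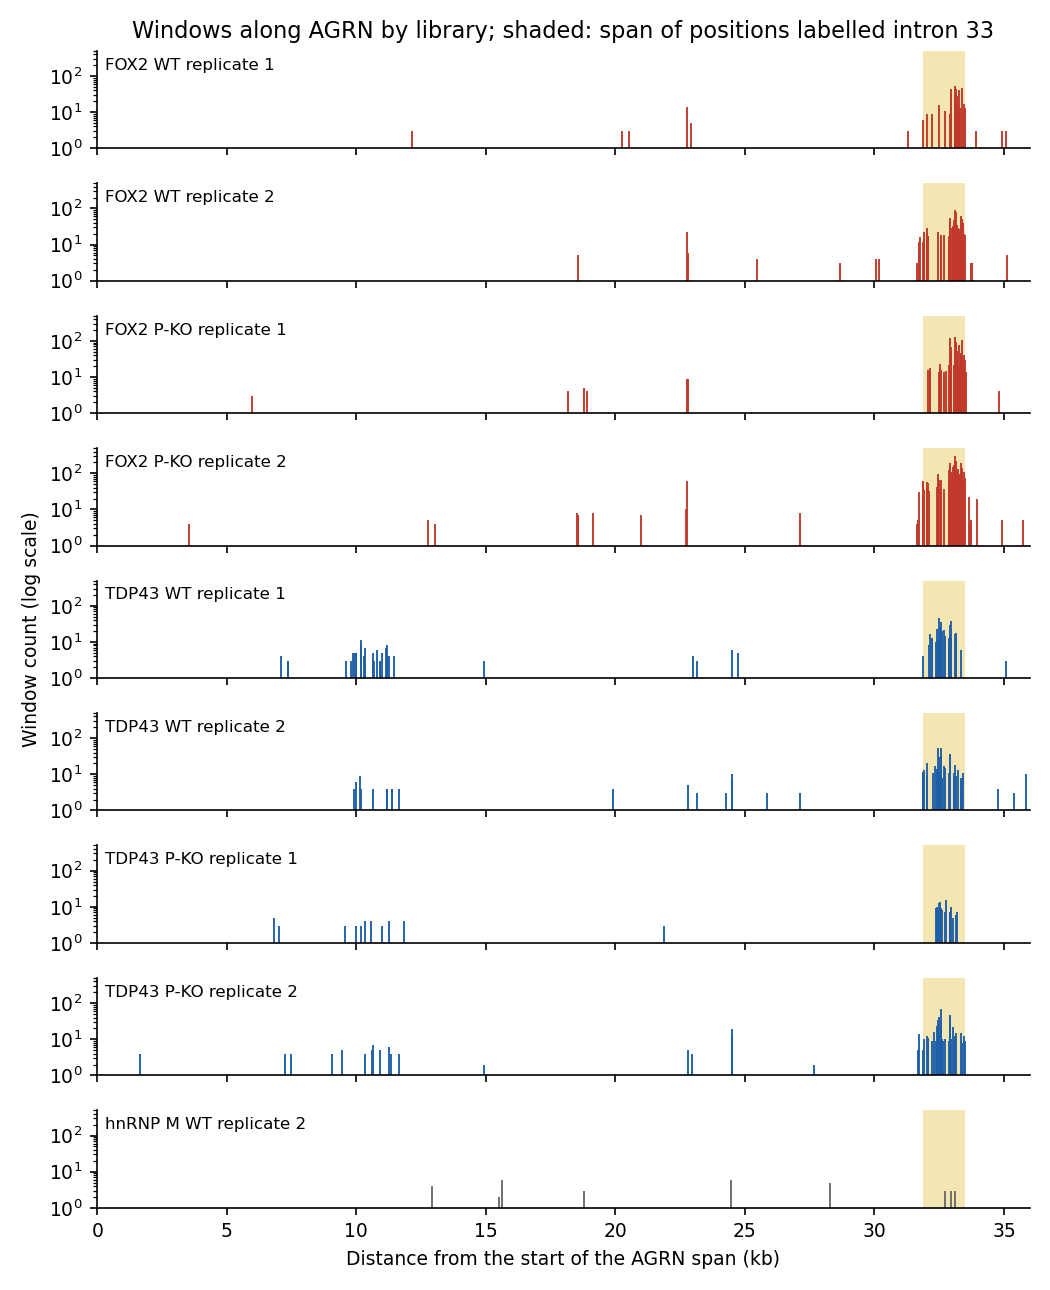
Window counts (log scale) along AGRN in the 9 libraries with signal, by distance from the start of the gene span in kb; the shaded band is the span of positions labelled intron 33. All 8 FOX2 and TDP43 libraries pile up in the band, TDP43 also shows scattered low windows in intron 2, left of the middle, and hnRNP M WT replicate 2 shows 9 low windows spread over the gene.

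The labels inside the stretch were checked before introns were compared, since a nucleotide of AGRN can belong to several transcripts. Of 812 distinct positions listed in the stretch, 288 carried different transcript labels in different libraries, against 2 of 311 outside it. The label went with the height of the count. In FOX2 WT every position labelled intron 33 had a count of at least 13 in replicate 1, where all other labels of the stretch reached at most 12, and of at least 20 in replicate 2, where the others reached 19. The same boundary fell at 24 and 23 in FOX2 P-KO replicate 1 and at 54 and 53 in replicate 2.

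TDP43 showed the same rule at lower counts. The lowest count labelled intron 33 and the highest of the other labels were 12 and 11 in TDP43 WT replicate 1, 13 and 12 in replicate 2, 6 and 5 in TDP43 P-KO replicate 1, and 15 and 13 in replicate 2. A label other than intron 33 here, mostly ENST00000461111.1 with no intron number, therefore marked a lower count, and that transcript's label ran along the whole stretch. Comparisons inside the stretch were for this reason made by position.

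**Figure D3:**
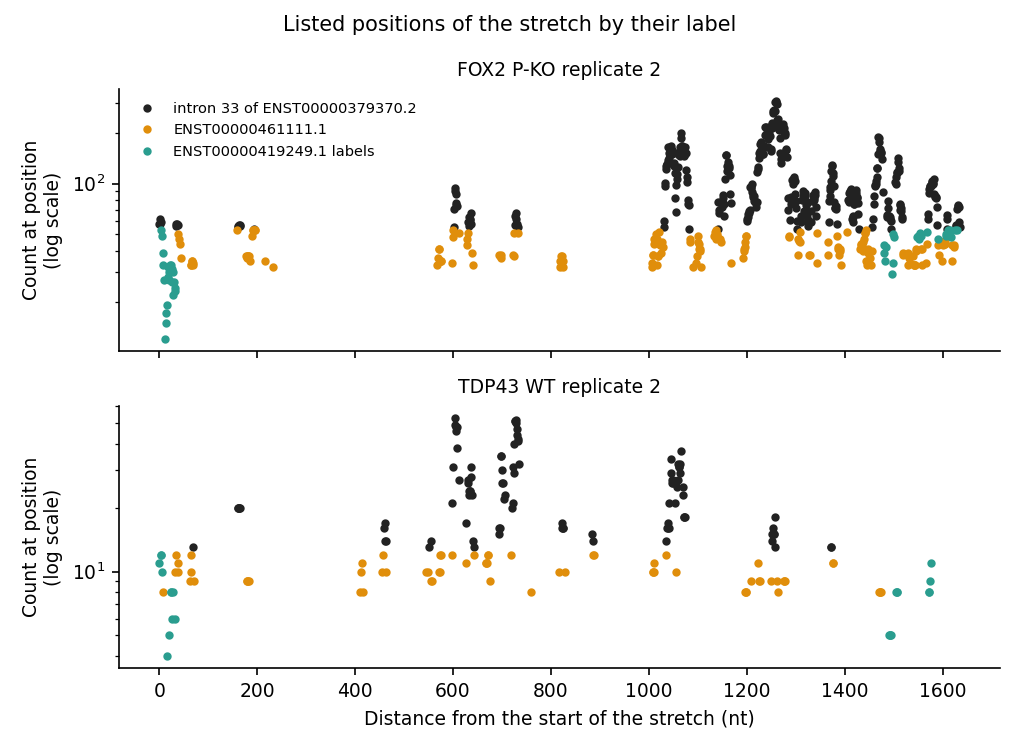
Count (log scale) of every listed position of the stretch against its distance from the start of the stretch in nt, coloured by transcript label, in FOX2 P-KO replicate 2 and TDP43 WT replicate 2. Positions labelled intron 33 lie above 53 counts in the first library and above 12 in the second, and the other labels lie at or below these counts along the whole stretch.

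Labels of another transcript marked a place as well as a lower count. Positions labelled ENST00000419249.1 without an intron number, and so inside exons of that transcript, formed blocks at 987374 to 987396 and at 988843 to 988872. These nucleotides are thus intronic in ENST00000379370.2 and exonic in ENST00000419249.1. By the same reading, the positions labelled ENST00000461111.1 without an intron number, along the whole stretch, lie inside an exon of that transcript. The files do not name the exons, and whether they are the z-site exons was not tested.

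FOX2 lay further downstream in the stretch than TDP43, whose mean position was near the middle. The count-weighted mean distance of windows from the start of the stretch was 1229 and 1140 nt for the FOX2 WT libraries and 1243 and 1146 nt for FOX2 P-KO. For TDP43 it was 805 and 768 nt with WT cells, and 820 and 837 nt with P-KO cells. All 4 FOX2 libraries lay downstream of all 4 TDP43 libraries. The means were 1190 ± 53.9 nt for FOX2 and 807 ± 29.6 nt for TDP43 (SD, n = 4 each), a difference of 382 nt. The stretch was singled out after the data were seen, so this difference is a description. Within FOX2 the values followed the replicate number, with both replicates 1 above both replicates 2. Over the whole gene the mean distance from the gene's start was 32664 ± 130 nt for FOX2 and 29183 ± 1441 nt for TDP43, a difference of 3481 nt (two-sided exact permutation test over 70 arrangements, p = 0.0286, the smallest this design allows). That test took the libraries as exchangeable. The TDP43 distances followed the replicate number, at 27804.9 and 28080.3 nt in replicates 1 and 30552.1 and 30296.5 nt in replicates 2. With protein permuted within replicate number and genotype, the exact permutation p was 0.125, the smallest of 16 arrangements. The difference within the stretch was 399 nt in WT libraries and 366 nt in P-KO libraries, each from 2 libraries against 2 and without a test.

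Between genotypes the mean positions lay closer together. In FOX2 the mean distance in the stretch was 1185 ± 63.1 nt in WT and 1194 ± 68.2 nt in P-KO (SD, n = 2). In TDP43 it was 786 ± 26.3 nt in WT and 829 ± 11.6 nt in P-KO. The FOX2 genotypes overlapped and the TDP43 genotypes did not, and these differences were not tested.

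Beyond the midpoint of the stretch lay 92.3%, 84.3%, 92.2% and 84.5% of its FOX2 window counts, in the order WT replicates 1 and 2 and P-KO replicates 1 and 2. The TDP43 libraries had 45.0%, 40.2%, 43.5% and 44.6% there. This share was chosen after the data were seen and is a description. FOX2 was thus largely a downstream signal, whereas TDP43 was spread over both parts.

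In steps of 100 nt, FOX2 lay above TDP43 without overlap of libraries in 5 of 17 steps and TDP43 above FOX2 in 3. The largest FOX2 step, from 988563 to 988662, held 28.8% ± 2.07 of the FOX2 counts of the stretch (SD, n = 4) and 7.28% ± 2.73 of the TDP43 counts. The largest TDP43 step, from 987963 to 988062, held 24.3% ± 1.70 of the TDP43 counts and 3.47% ± 0.664 of the FOX2 counts. The 5 steps in which FOX2 was higher were all downstream of the 3 in which TDP43 was higher. The step next to the largest TDP43 step, from 988063 to 988162, held 12.3% ± 1.71 of TDP43 and 1.01% ± 0.711 of FOX2 counts.

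Both proteins were also found together. In the step from 988363 to 988462 FOX2 had 14.5% ± 1.66 and TDP43 19.1% ± 8.09 of the counts of the stretch, and the libraries overlapped. Just upstream of it, from 988253 to 988368, no position was listed in any library over 116 nt. That gap lay between the largest TDP43 step and the largest FOX2 step. TDP43 had large steps on both sides of it, and the step from 988363 to 988462 was its largest in WT replicate 1 and P-KO replicate 2.

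**Figure D4:**
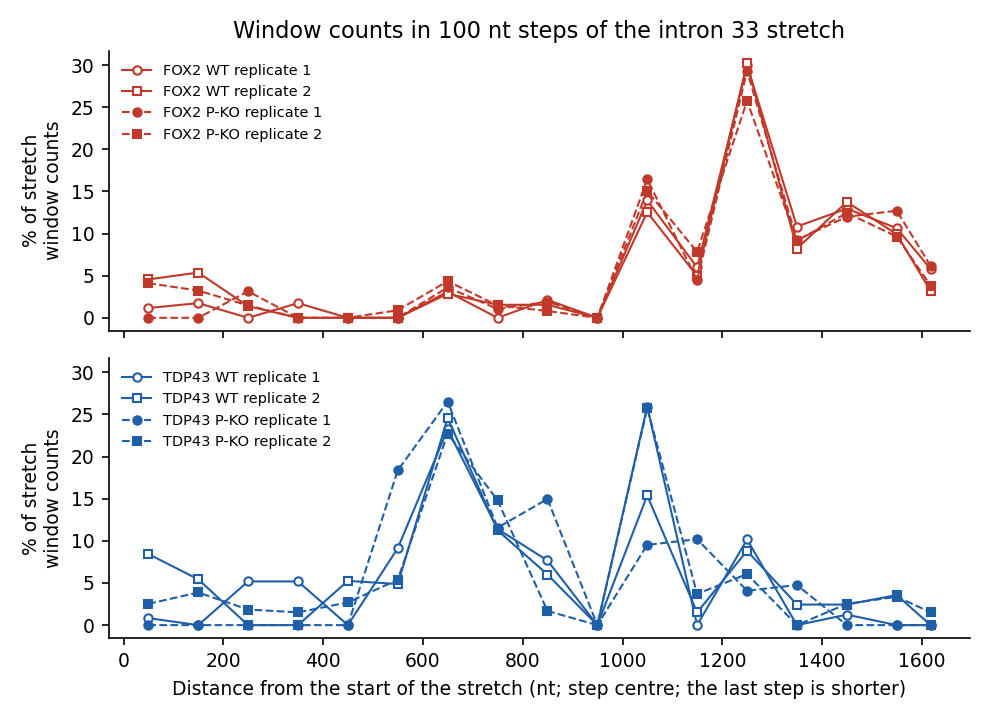
Percentage of each library's window counts of the stretch in consecutive 100 nt steps, by distance from the start of the stretch in nt, for FOX2 (upper panel) and TDP43 (lower panel); solid lines and open symbols are WT, dashed lines and filled symbols P-KO. The 4 FOX2 libraries peak together in the step from 1200 to 1299 nt, at 28.8% on average, and TDP43 is highest on average from 600 to 699 nt, at 24.3%, with another rise from 1000 to 1099 nt that is the higher one in 2 of its 4 libraries.

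The shape of the signal along the stretch was shared between libraries of 1 protein more than between proteins. Over 33 steps of 50 nt, Pearson's r was 0.637 to 0.965 for the 4 pairs of the same protein and replicate number and 0.551 to 0.867 for the 8 pairs of the same protein and different numbers. Within FOX2 alone, pairs with the same number (0.942 and 0.965) lay above all pairs with different numbers (0.746 to 0.819). Within TDP43 such pairs overlapped. Between FOX2 and TDP43 r was 0.0515 to 0.361 for 8 pairs with the same number and -0.113 to 0.262 for 8 pairs with different numbers. These are descriptions across steps of 1 region, which are not independent, and shallow libraries add noise to them.

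Single windows showed the same order. The highest FOX2 window lay at 988622 to 988624 in all 4 FOX2 libraries, with 52, 93, 131 and 309 counts (WT replicates 1 and 2, P-KO replicates 1 and 2). TDP43 had 17, 18, 0 and 12 counts there, in the same order, which is kept below. hnRNP M WT replicate 2 had 3. The place of the strongest FOX2 contact was therefore fixed to within 3 nt across libraries and genotypes.

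Other strong FOX2 windows lay close by. The window at 988639 had 29, 80, 91 and 224 FOX2 counts and 14, 9, 0 and 15 TDP43 counts. At 988650 FOX2 had 27, 70, 66 and 144 counts and TDP43 8, 0, 0 and 0. At 988602 FOX2 had 9, 47, 31 and 217 counts and TDP43 was listed at 0 in all 4 libraries. The windows from 988602 to 988661 thus formed a run in which FOX2 was found in every one of its libraries and TDP43 in some or none. At its end, at 988661, FOX2 had 44, 23, 88 and 109 counts, and TDP43 18, 0, 6 and 0.

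A further strong FOX2 window, at 988871, fell inside the second exonic block of ENST00000419249.1. It had 46, 50, 104 and 141 FOX2 counts and 0, 8, 0 and 8 TDP43 counts. The window at 988854, in the same block, had 13, 28, 45 and 79 FOX2 counts and 6, 5, 0 and 0 TDP43 counts. Just before the block, the window at 988834 had 0, 63, 42 and 190 FOX2 counts, and TDP43 had 0, 8, 0 and 15. Windows centred in this block were therefore listed in all 4 FOX2 libraries. The first block was weaker: the window at 987386 had 6, 12, 0 and 33 FOX2 counts and 4, 8, 0 and 0 TDP43 counts.

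The TDP43 windows of highest summed count began upstream. The first, at 988091, had 35, 52, 5 and 69 TDP43 counts and 0, 19, 16 and 67 FOX2 counts. At 987994 TDP43 had 47, 31, 13 and 42 counts, and FOX2 16, 0, 14 and 67. At 987967 TDP43 had 12, 53, 7 and 35 counts, and FOX2 0, 23, 0 and 94. Close to these were windows that FOX2 listed in 1 library only. The lowest counts listed in the stretch were 5, 7, 13 and 12 in FOX2, against 4, 4, 5 and 5 in TDP43. A FOX2 window without a line can thus hold as many counts as some TDP43 windows that were listed. At 988006 TDP43 had 19, 23, 7 and 28 counts and FOX2 0, 0, 0 and 39. At 987934 TDP43 had 23, 12, 10 and 23 and FOX2 0, 0, 0 and 41. Unlike FOX2, TDP43 had its highest window at a different place in each library (987994, 987966, 988249 and 988091).

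Windows of both proteins met downstream of the gap. Merged over all 8 libraries, 2 windows were found in every FOX2 and TDP43 library. These 2 are neighbours, so their counts can share signal. The one at 988436 had 44, 43, 118 and 166 FOX2 counts and 34, 25, 7 and 36 TDP43 counts. The one at 988425 had 9, 54, 39 and 199 FOX2 counts and 25, 37, 7 and 48 TDP43 counts. Both FOX2 P-KO libraries were above both WT libraries in the first of these windows, and the genotypes overlapped in the other. Counted over TDP43 alone, the window at 988428 had 29, 37, 7 and 48 counts and that at 988439 had 34, 18, 7 and 35. Nearby, at 988409, FOX2 had 0, 43, 37 and 167 counts and TDP43 16, 34, 0 and 34, and at 988398 FOX2 had 0, 38, 28 and 165 and TDP43 13, 17, 0 and 38.

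Of 185 merged windows in AGRN, 27 were found in at least 2 libraries of each protein, 26 of them in the stretch and 1 in intron 7. A further 16 were found in at least 2 FOX2 libraries and no TDP43 library, and 16 the other way round. Libraries differed in their lowest listed count, so a window not found is not known to be without contacts. Of the 105 windows of FOX2, 39 were found in at least 3 of its 4 libraries, 37 of these in the stretch, and 51 in 1 library. Of the 126 windows of TDP43, 21 were found in at least 3 libraries, 18 of these in the stretch, and 80 in 1 library. The lower counts per window in TDP43 (6.64 to 13.7 on average per library, against 16.9 to 65.8 in FOX2) stand beside this lower recurrence; their part in it was not tested.

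Pairs of libraries of the same protein shared 33.9% to 82.1% of either list of windows in FOX2 and 19.2% to 50% in TDP43. Between proteins the share was 14.3% to 51.9%. Windows were counted as shared up to 10 nt apart, and deeper libraries list more windows. The ranges within and between proteins overlapped, so by this measure the 2 proteins were not fully separate.

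Outside the stretch the proteins differed in amount and in place. FOX2 had 7.18% and 7.59% of its AGRN window counts outside the stretch in its WT libraries and 3.30% and 4.81% in its P-KO libraries. TDP43 had 24.1% and 16.2% in its WT libraries and 20.97% and 16.8% in its P-KO libraries. The means were 5.72% ± 2.03 and 19.5% ± 3.72 (SD, n = 4 each), and the libraries did not overlap. This share and those by intron that follow were chosen after the data were seen and carry no test.

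Intron 2, a long intron of the 5′ part of the gene, was a TDP43 region. TDP43 had 132 and 47 window counts there in its WT libraries and 36 and 52 in its P-KO libraries. Windows labelled with this intron lay between 959032 and 970442. FOX2 had 3 and 0 in its WT libraries and 3 and 13 in its P-KO libraries, and hnRNP M WT replicate 2 had 4. As a share of AGRN window counts this was 20.8%, 7.39%, 19.4% and 7.28% for TDP43 and 0.539%, 0%, 0.190% and 0.271% for FOX2. No TDP43 library overlapped a FOX2 library, but the TDP43 replicates split in both genotypes, replicate 1 being high and replicate 2 low. The TDP43 windows of intron 2 were many and low, 59 in all over the 4 libraries. Among those that came back were the window at 966776, with 4, 0, 4 and 6 counts, and the window at 966166, with 5, 4, 0 and 4.

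By window counts, intron 7 was mainly a FOX2 region. FOX2 had 19 and 28 window counts there in its WT libraries and 18 and 73 in its P-KO libraries, and TDP43 had 4, 5, 0 and 9. As shares of AGRN window counts the libraries of the proteins overlapped. FOX2 P-KO replicate 1, with 18 of 1578, lay below TDP43 P-KO replicate 2, with 9 of 714. Summed over libraries, most of the FOX2 counts came from 1 window at 978283, with 14, 22, 9 and 63 counts. It was the only FOX2 window outside the stretch that was listed in all 4 FOX2 libraries, and TDP43 had 0, 5, 0 and 5 counts in an overlapping window at 978289.

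Intron 12 showed the opposite. TDP43 had 11 and 18 window counts there in its WT libraries and 0 and 32 in its P-KO libraries, with 6, 10, 0 and 19 of them at 979988. FOX2 was listed at 0 in all 4 libraries, and hnRNP M WT replicate 2 had 6. Intron 3 held 6, 5, 5 and 29 FOX2 counts, 0, 4, 0 and 0 TDP43 counts and 11 hnRNP M counts.

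Just upstream of the stretch, positions labelled intron 6 of ENST00000419249.1 (987228 to 987258) held 0, 39, 0 and 31 FOX2 counts and 0, 0, 0 and 14 TDP43 counts. That region was thus listed in replicates 2 and not in replicates 1 of FOX2. Exonic positions of ENST00000379370.2 held 6, 18, 4 and 50 FOX2 counts and 6, 26, 3 and 0 TDP43 counts. Across the gene 22 labels were seen, 5 of them in the stretch. The remaining labels outside it (introns 1, 4, 19, 23, 27 and 34 of ENST00000379370.2 and some labels of 6 other transcripts) held at most 20 counts in any FOX2 or TDP43 library.

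The hnRNP M signal was made of 9 windows of 2 to 6 counts. They lay at 968421, 971026, 971115, 974278, 979965, 983792, 988209, 988465 and 988620, 6 of them outside the stretch. The highest, with 6 counts each, were at 971115 in intron 3 and at 979965 in intron 12. The windows at 988465 and 988620, with 3 counts each, coincided with windows of the other proteins: the first with 3 FOX2 and 3 TDP43 libraries, the second with 4 and 3. With 35 counts from 1 library, no preference of hnRNP M along the gene can be read from these data.

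The genotypes were then compared over AGRN as 1 feature, to ask whether contacts of each protein on this RNA changed in P-KO cells. FOX2 in P-KO was higher in the mean by 1.99 times as a share of the library, and both P-KO libraries lay above both WT libraries. In edgeR's quasi-likelihood test over all 10561 features tested the log2 fold change was 1.10 (SE 1.42) with a Benjamini-Hochberg adjusted p of 1.00, so it did not pass. The log2 value was 0.49 (SE 0.494) with the FOX2 libraries fitted alone and -0.09 when windows were counted in place of their counts. The background of that comparison was 0.0189% of features called. The spread between replicates was wide over all features, with a biological coefficient of variation of 1.09. TDP43 was lower in P-KO in the mean, with a log2 fold change of -0.58 (SE 1.41; edgeR adjusted p = 1.00; background 0.0284% called). This direction rested on TDP43 P-KO replicate 1, without which the value was 0.05.

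For hnRNP M the edgeR adjusted p was 0.387 (background 0.0473% called), and no fold is given since both P-KO libraries were listed at 0. All of its counts came from 1 WT library. That adjusted p was 0.0220 without hnRNP M WT replicate 1 and 0.000514 when every feature with a count was tested. In the first of these, 1 WT library stood against 2 P-KO libraries, and its spread was assumed to be like that of the other groups. Over all settings tried it ran from 0.000514 to 1.00. The difference of the genotype effect between proteins did not pass either (edgeR adjusted p = 0.796), in a test that called 0% of features, with 523 features at an unadjusted p under 0.05 and 1 called by DESeq2. It was 0.00549 when every feature was tested, and 0.00549 to 0.945 over all settings.

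The effect common to the 3 proteins was a log2 fold change of -1.02 (SE 0.994; edgeR adjusted p = 1.00; background 0.123% called). Its sign came from hnRNP M WT replicate 2, without which it was 0.34. The share of library counts, compared by a two-sided exact permutation test with genotype permuted within each protein over 216 arrangements, gave a mean log2 difference of -0.72 (p = 0.685) and 0.13 without that library. Libraries listed at 0 entered at 0.5 counts, so this mean depends on that choice. Within proteins the mean log2 difference was 1.05 in FOX2 (exact permutation p = 0.333, the smallest that 2 libraries against 2 allow) and -0.69 in TDP43 (exact permutation p = 0.667).

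Splitting AGRN by position, a step added after the data were seen, gave FOX2 log2 fold changes of 1.15 (SE 1.41) for the stretch and 0.01 (SE 1.35) upstream of it, both with an edgeR adjusted p of 1.00. In TDP43 they were -0.53 (SE 1.40) and -0.66 (SE 1.35), also with adjusted p of 1.00. Downstream of the stretch, where counts were few, the FOX2 value was 1.27 (SE 1.76) and did not pass. No TDP43 fold is given there, since both P-KO libraries were listed at 0. Its unadjusted edgeR p was 0.0164, which did not pass after adjustment. Differences between these parts of the gene were not tested.

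By the deposited labels, 9 AGRN labels entered the fit, and edgeR called 0 of them in any comparison. DESeq2 also called 0, but it gave an adjusted p for only 2 of the 9 in FOX2, 6 in the common effect and 3 in each other comparison. The edgeR background was 0.0712% of labels called in FOX2, 0.0475% in TDP43, 0.0593% in hnRNP M, 0.166% in the common effect and 0% in the difference between proteins. At an unadjusted p under 0.05 edgeR had 2 AGRN labels in FOX2, 1 in hnRNP M, 1 in the difference between proteins and 0 in the others, and DESeq2 had the same numbers. Over all labels the share under that unadjusted p in edgeR was 4.85% in FOX2, 7.67% in hnRNP M and 5.18% in the difference between proteins. In DESeq2 that share was 5.40%, 7.94% and 4.85%, in the same order. DESeq2 called 0.404% of all labels in FOX2. The intron 33 label itself held 445 and 946 window counts in FOX2 WT and, with P-KO cells, 1158 and 3751. For TDP43 it held 416 and 369 with WT cells, then 137 and 406 with P-KO cells. Its FOX2 log2 fold change was 1.59 (SE 0.765; edgeR adjusted p = 0.865) and its TDP43 value -0.63 (SE 0.752; adjusted p = 1.00). Since this label was given only to the higher counts of each library, its value mixes a change of level with a change of label.

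Intron 2 by label gave -1.09 (SE 1.35) in TDP43, and intron 7 gave 0.67 (SE 1.79) in FOX2, both with an edgeR adjusted p of 1.00. Intron 8 of ENST00000419249.1 was the other FOX2 label with an unadjusted p under 0.05: it was listed at 0 in both WT libraries and at 46 and 51 counts in P-KO (edgeR adjusted p = 0.865). Its positions lie in the stretch, where labels followed the count.

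The features whose pattern over the 12 libraries was most like that of AGRN were picked by Pearson's r of log2(CPM + 1), where CPM is window counts scaled to the same total in each library, among 10560 other features. The first was a bin on the plus strand of chromosome 19 (2330001 to 2340000, r = 0.995), with 41, 97, 83 and 287 FOX2 counts and 92, 36, 24 and 52 TDP43 counts. The second was on the minus strand of chromosome 5 (177850001 to 177860000, r = 0.995), with 20, 28, 36 and 91 and 19, 15, 5 and 28. The other 3, on chromosomes 16 (25910001 to 25920000, plus), 5 (25420001 to 25430000, minus) and 15 (82040001 to 82050000, minus), had r of 0.990, 0.989 and 0.987. All 5 were listed at 0 in the same 3 hnRNP M libraries as AGRN, and these points carry much of the r. Over the 8 FOX2 and TDP43 libraries alone r was 0.810, 0.918, 0.828, 0.381 and 0.567 in the same order. The bins are given by position because no gene names of hg19 were used here.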

How the data were processed

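Reads were aligned with Bowtie to GRCh37 (hg19), per the submitters' processing notes; no peak caller is named in the sources used here. As deposited by the authors, there was 1 list of nucleotides per library, each with a transcript label, a strand, a whole-number count and, last, a p-value or a q-value (no source says which). The deposited counts are not normalized, start at 2, and may be reads or collapsed cDNAs.

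Windows were kept from the highest count down, at least 11 nt apart on a strand. AGRN windows were summed as 1 feature among strand-specific 10 kb bins and fitted over all 12 libraries with edgeR 4.0.16 in R 4.3.3 (filterByExpr, TMM, quasi-likelihood F test, Benjamini-Hochberg adjustment, threshold 0.05). A similar fit used the deposited labels. The fits were tested on simulated counts, where they called changed features for the effect common to the proteins but none within 1 protein, so a change within 1 protein can go uncalled at this spread. DESeq2 1.42.0 was an alternative. Permutation tests used Python 3.11.15, and intervals scipy 1.17.1. The mean position over the gene was the planned test of position; the mean position in the stretch, the shares by region and the split of AGRN were added after the data were seen.

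The gene, the lists and the tests were chosen with earlier results of these data known. Windows named were, per protein, the 6 of highest summed count, up to 12 found in at least 3 libraries, those found in at least 2 libraries of both proteins, and all hnRNP M windows; windows of introns 2, 7 and 12 were chosen after their values were seen. The other windows of these sets are given as counts. Labels were named by their counts, and likeness by the 5 highest correlations. Lists of agrin signalling and basement membrane genes and of cell type markers were not analysed here, because no table used here names features of hg19. No sequence of AGRN was used here.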

Additional observations from a re-analysis of the deposited data

How the results depend on the processing

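Most values kept their direction and their side of the threshold. With DESeq2, no TMM, stricter filtering, the robust option or mitochondrial and unplaced positions left out, no call on AGRN changed. The size of the FOX2 log2 fold change did change from the 1.10 of the main fit. It was 0.55 without TMM, 0.46 with at least 20 counts in 2 libraries and 0.49 (SE 0.494) with the FOX2 libraries alone. Counting windows instead of their counts turned the FOX2 log2 fold change to -0.0874, and testing every feature gave adjusted p of 0.000514 for hnRNP M and 0.00549 for the difference between proteins. Leaving out each library gave log2 fold changes of 0.77 to 1.73 in FOX2, -1.68 to 0.0513 (without TDP43 P-KO replicate 1) in TDP43 and -1.72 to 0.338 (without hnRNP M WT replicate 2) for the common effect, adjusted p of 0.0220 to 1.00 in hnRNP M and 0.570 to 0.921 for the difference between proteins, and a share difference of -1.58 to 0.13. AGRN labels called ranged from 0 to 1 in hnRNP M and in the difference between proteins, the intron 33 label being called without hnRNP M WT replicate 1 in both. The causes were not tested.

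Replicate numbers were not taken to pair libraries, since over all features tested deviations of same-numbered libraries had r of 0.000803 to 0.0688 over 15 pairs of groups. On AGRN itself some values did follow the number, so these r do not settle the pairing for this gene. The TDP43 shares in intron 2 were 20.8% and 19.4% in replicates 1, against 7.39% and 7.28% in replicates 2. The FOX2 mean distances in the stretch were 1229 and 1243 nt in replicates 1, against 1140 and 1146 nt in replicates 2. With the replicate number as a block, FOX2 was 1.21, TDP43 -0.97 and the common effect -1.03, the adjusted p of hnRNP M was 0.524, and 1 AGRN label, intron 33, was called in the difference between proteins. With protein permuted within replicate number and genotype, the mean position over the gene kept its difference of 3481 nt at p = 0.125, the smallest of 16 arrangements by that exact test, so the block cannot pass the threshold. Leaving out libraries, it was 3021 to 3937 nt at an exact permutation p of 0.0286, and within the stretch 364 to 399 nt. Other settings gave 1883 to 6373 nt and 289 to 423 nt. The FOX2 minus TDP43 shares ran from 31.6 to 53.5 percentage points beyond the midpoint of the stretch, from -18.9 to -6.31 outside it and from -28.2 to -6.48 in intron 2. With the libraries of 1 protein alone, hnRNP M could not be tested because AGRN did not pass the filter. The 3 hnRNP M libraries without AGRN were the shallowest of that protein; the part of depth in this was not tested.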
